A study of Mus musculus with 6 samples.

Results

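Histone genes were described as a family in germinal centre B cells of mice with and without a conditional deletion of Lsd1. Lsd1 (gene symbol Kdm1a) is a histone demethylase that acts on methylated lysine 4 of histone H3. The family was taken by gene symbol as every row named Hist1h to Hist4h, H1f, H2af, H2bf or H3f, which gave 68 of the 15861 genes in the count table. These fell into 9 linker genes, 50 replication-dependent core genes and 9 core variant genes. No row began with H2bf. RNA came from B220+ GL7+ FAS+ germinal centre B cells sorted from C57BL/6 mice, described as littermates, with 1 mouse per library and 3 mice per group. The control group (WT) carried Lsd1 f/f alleles and no Cre. The knockout group (KO) carried Cgamma-cre+/- together with Lsd1 f/f, so that the floxed alleles were present in both groups. In this cross Cre is driven from an immunoglobulin gamma constant region gene, which is switched on in B cells responding to antigen. A control carrying Cre but no floxed allele was not analysed here. The sources used here do not give the age of the mice.

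Histones package DNA into nucleosomes. An octamer of the core histones H2A, H2B, H3 and H4 forms the particle, and a linker histone H1 binds the DNA where it enters and leaves. Most core histone protein is made in S phase from clustered, intron-poor replication-dependent genes, whose mRNAs end in a conserved stem-loop bound by SLBP in place of a poly(A) tail. Variant histones are made from dispersed genes with polyadenylated mRNAs, and their protein can be placed in chromatin outside S phase. Germinal centre B cells divide rapidly, so their need for new histones is high. The libraries were made from poly(A) RNA, a selection that takes up tailed mRNAs and leaves most stem-loop mRNAs behind.

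Depth in WT 1 to 3 was 3.79, 5.52 and 3.39 M counts, and in KO 1 to 3 it was 12.3, 14.3 and 13.1 M counts. All KO libraries were thus deeper than the WT libraries. Levels are given as CPM, the counts of a gene per 1000000 counts, on library sizes scaled by the trimmed mean of M values (TMM). A single count, 1 read, then stands for between 0.195 and 0.312 CPM in WT, and for between 0.0706 and 0.0759 CPM in KO. Where a gene has 0 counts, up to 3 are allowed by counting error alone, at most 0.935 CPM in a WT library and 0.228 CPM in a KO library. The targeted gene Kdm1a was read at 134, 85.2 and 92.6 CPM in WT and at 81.9, 33.0 and 21.8 CPM in KO. Its KO values all lay below its WT values in TMM-scaled CPM, but KO 1 was close to WT 2. As CPM of the plain library total the groups overlapped, with KO 1 at 87.5, WT 2 at 78.9 and WT 3 at 87.6. The log2 fold change of -1.19 (SE 0.50) had an adjusted p of 0.393 in edgeR. Without KO 1 it was -1.93 (SE 0.31) with an adjusted p of 0.0169 in edgeR. The germinal centre markers Bcl6 and S1pr2 were present, and Mef2b was near 0 at no more than 0.456 CPM. All 10 macrophage markers were detected, and their sums ranged widely in both groups, from 248 up to 2210 CPM among WT mice and from 160 up to 2300 CPM among KO mice. For the 7 T cell markers in the table, WT sums lay between 194 and 267 CPM and KO sums between 146 and 200, nearly all of it Lck at 187 to 255 and 139 to 185 CPM, and Cd3d stood at no more than 1.14 CPM.

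Core variants held nearly all histone reads. Summed over their 9 genes they reached 2990, 3090 and 2830 CPM in WT and 2270, 2810 and 2270 CPM in KO. In WT the 9 linker genes reached 196, 146 and 196 CPM, and in KO 90.3, 109 and 90.9 CPM. The 50 replication-dependent core genes together made up only 47.0, 63.3 and 49.6 CPM of the WT libraries and 38.6, 52.0 and 35.5 CPM of the KO libraries. The 56 genes with a Hist name, which add the Hist1h1 linkers to the replication-dependent core genes, held 1.74% to 2.33% of all histone CPM in a library.

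Per kilobase of exon, the order of the tested genes over all 6 libraries ran from H2afz at 346 CPM per kb, H2afx at 331 and H3f3b at 247 to H2afv at 126, H3f3a at 90.1 and H1fx at 56.2. H2afy at 46.4, H2afj at 36.0 and H1f0 at 28.2 CPM per kb followed. Hist1h4i led the Hist-named genes at 14.2 CPM per kb. Neighbours in this order were often within their spread. In WT, H2afz had 382 ± 62.9 CPM per kb (SD, n = 3) and H2afx had 386 ± 75.7 (SD, n = 3).

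**Figure D1:**
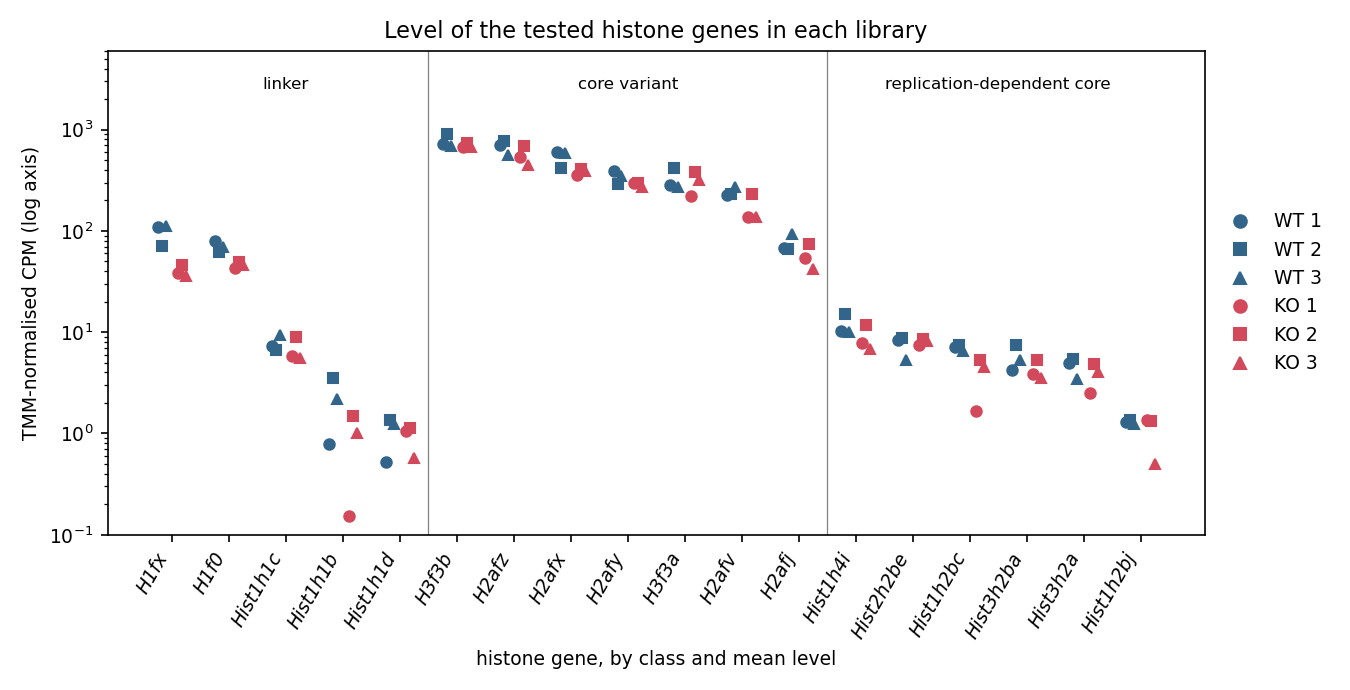
Level of each of the 18 tested histone genes in every library, as TMM-normalised CPM on a log axis. Genes are grouped by class and ordered by mean level, and each point is 1 mouse. Every core variant shown lies above 40 CPM in all libraries, and every replication-dependent core gene shown lies below 16 CPM.

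The 3′ ends of the Hist-named genes are shown first because poly(A) selection bears on which of these genes can be read at all. Every GENCODE vM21 transcript of each gene was searched for the histone stem-loop motif, and a gene was counted as having an element if any of its transcripts held it. It has a stem of GGCNCT and its partner AGNGCC around a loop of TTTN. The last 50 bases were searched for the poly(A) signals AATAAA and ATTAAA, on the transcript's strand. The stem-loop motif matched 49 of 141767 GENCODE transcripts (0.035%), the signal matched 33.7%, and both matched 0.012%. The windows below come from the transcript of each gene that holds the most elements, and the capitals mark the stem-loop and then the poly(A) signal.
Hist1h4i stem-loop: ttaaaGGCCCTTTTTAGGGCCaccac
Hist1h4i signal: ctgtttacATTAAAagtattctatgctaa
Hist1h1c stem-loop: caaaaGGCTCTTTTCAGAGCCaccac
Hist1h1c signal: atgcttctAATAAAaagcgtttagttttca
Hist3h2ba stem-loop: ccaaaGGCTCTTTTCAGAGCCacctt
Hist3h2ba signal: atggtattAATAAAtttggttcaattttgg
H2afx stem-loop: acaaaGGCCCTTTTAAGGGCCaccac
H2afx signal: ctaattttATTAAAggatcgtttggttttg
Hist1h2bj stem-loop: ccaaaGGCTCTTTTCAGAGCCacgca
H1fx signal: tggggcgcAATAAAcggttccaaccttga
H1f0 signal: aactttaaAATAAAactggaaaggaaaaaa
The first 4 genes carry both elements, with the signal far downstream of the stem-loop. In Hist1h4i the stem-loop begins at base 382 and the signal at base 707 of 727. In H2afx, the gene of H2A.X, they begin at bases 547 and 1350 of 1384. Hist1h2bj has a stem-loop at base 425 of 463 and no signal, whereas H1fx and H1f0 have a signal and no stem-loop.

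A stem-loop was matched in 35 of the 68 histone genes, in 6 forms. The most common form, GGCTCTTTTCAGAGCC, was found in 20 genes, of which 3 encode H1, 6 H2A, 8 H2B and 3 H3. The form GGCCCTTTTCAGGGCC was found in 5 genes, all of H4, and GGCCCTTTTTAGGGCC in 2 further H4 genes, Hist1h4i and Hist2h4. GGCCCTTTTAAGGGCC was found only in H2afx among these genes. The transcript model of 13 Hist-named genes is at most 411 bases long, the coding length of an H3 gene, and of these only Hist1h4f held a stem-loop match. A missing match in so short a model says nothing about the end of the mRNA.

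A few genes held most Hist-named reads. Hist1h4i, Hist2h2be, Hist1h1c, Hist1h2bc, Hist3h2ba and Hist3h2a had the highest CPM of the Hist-named genes, a set named after its values were seen. These 6 genes held 61.1% to 75.2% of Hist-named CPM in each library, and 5 of them, all but Hist1h2bc, have a poly(A) signal. Across all 56 Hist-named genes the median level differed little, at 0.510 CPM per kb for the 14 with a signal and 0.536 for the 42 without. Of those with a signal 5 passed the filter on low counts, and of those without 4 did.

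**Figure D2:**
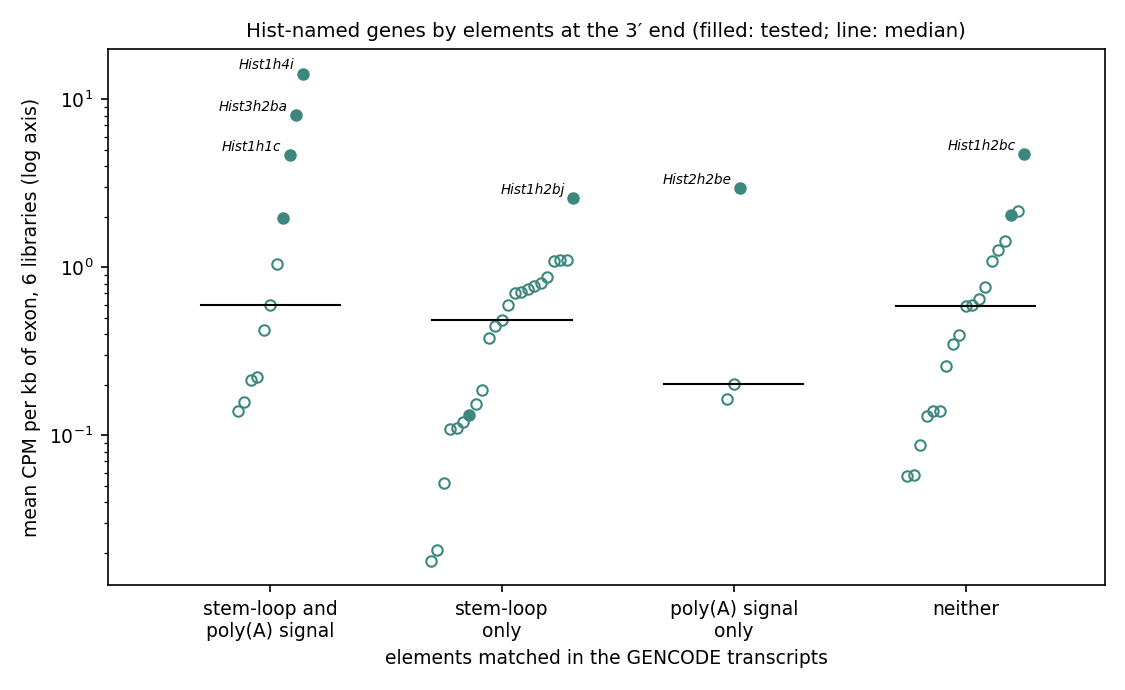
Mean level over the 6 libraries of each Hist-named gene, in CPM per kb of exon on a log axis, by the elements matched at its 3′ end. Filled points passed the filter on low counts and lines are medians. The 11 genes with both elements (in Hist1h2bp on separate transcripts) range from 0.140 to 14.2 CPM per kb and hold the highest, Hist1h4i, while the 4 group medians lie between 0.201 and 0.596.

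The filter on low counts kept 18 of the 68 genes: 5 linkers, 6 replication-dependent core genes and 7 variants. The other 50 genes, 44 of them replication-dependent, had 811 counts in all 6 libraries together and no more than 22 in any library. None of the 10 replication-dependent H3 genes passed. The most read of them, Hist1h3c, had 1, 4 and 1 counts in WT and 7, 15 and 5 counts in KO, and Hist1h3g had 2, 2 and 5 counts in WT and 9, 6 and 6 in KO. Hist1h4d, an H4 gene, had 3, 5 and 2 counts in WT and 22, 9 and 2 in KO. These KO counts come from deeper libraries, and as these genes did not pass the filter, no difference was tested for them. Of all members, 35 were at 0 in at least 1 library. The oocyte linker H1foo had 2 counts in all and the macroH2A2 gene H2afy2 had 1. H2afy3 and Hist3h2bb-ps are annotated as processed pseudogenes, with 10 and 2 counts.

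In the comparison of KO with WT, no histone gene passed an adjusted p of 0.05 in edgeR in either direction. Over all 10926 genes tested, 0.0732% were called higher, 0.00915% lower and 0.0824% in either direction. A fold change below 0 was found for 17 of the 18 tested histone genes, against 48.7% of all genes tested, and the exception was Hist2h2be. The median log2 fold change was -0.35 over the 18 genes and 0.01 over all genes tested. It was -0.19 without WT 2, where 16 of 24 tested histone genes were below 0, and -0.57 without KO 2, where 15 of 16 were. By class it was -0.61 for the 5 linkers, -0.36 for the 6 replication-dependent core genes and -0.30 for the 7 variants. In TMM-scaled CPM, all 3 KO values lay below all 3 WT values for 4 tested histone genes, against 7.95% of all genes tested. These were H1fx, H1f0, H2afx and Hist1h2bc, of which H2afx overlapped as CPM of the plain library total. None of the tested histone genes lay wholly above, against 10% of all genes. At an unadjusted p under 0.05, 3 histone genes were lower, H1fx, H1f0 and H2afx, and 0 were higher, against 5.5% and 7.1% of all genes. In bulk samples fewer cells of a type and less RNA per cell cannot be told apart. Near-identical histone copies may exchange reads, since the handling of reads with several matches is not given in the sources used here, so the value of any single Hist gene is uncertain.

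**Figure D3:**
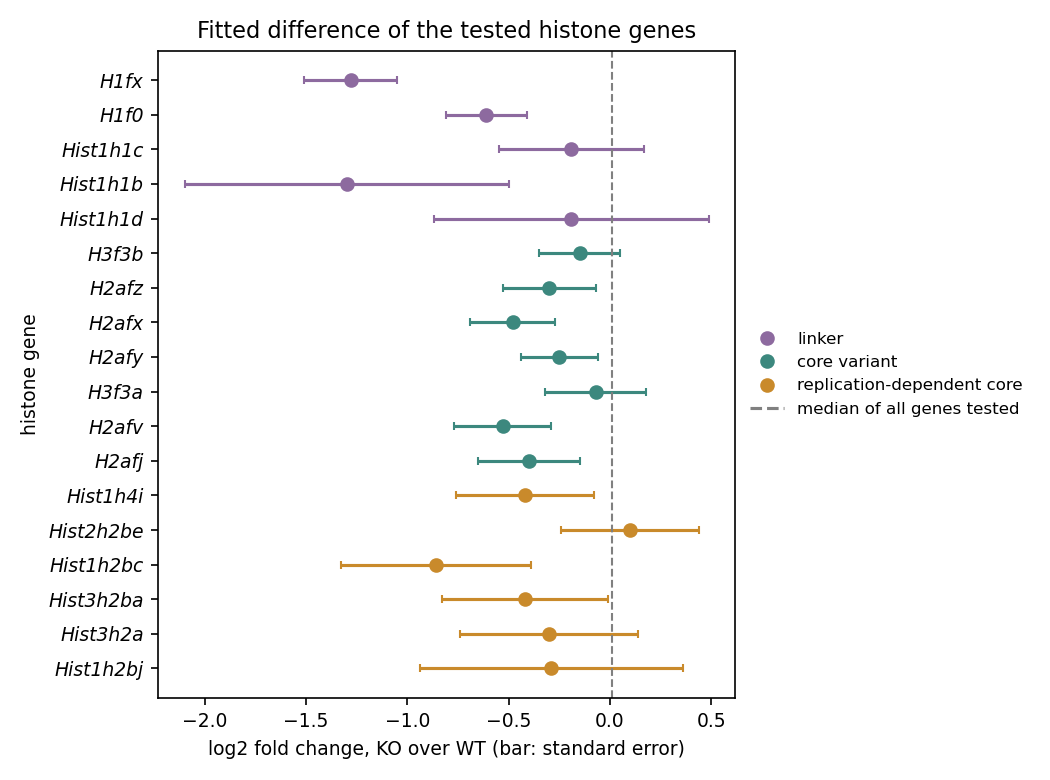
Log2 fold change of KO over WT for each tested histone gene, with its standard error as a bar and the median of all genes tested as a dashed line. The point of H1fx at -1.28 stands apart from the other well-measured genes, and the bar of Hist1h1b at -1.30 is far wider.

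Among the linkers, H1fx had the lowest p of any histone gene. It encodes H1.10, a replication-independent linker histone, and lies on chr6:87980421-87981637 (GRCm38, minus strand) as a gene of 1 exon. Gm5577, which overlaps it on the other strand, was read at no more than 1.22 CPM. Gm47286 overlaps it on the same strand and was not among the genes of the table, so reads shared with it cannot be told apart. H1fx was read at 108, 70.4 and 112 CPM in WT and at 38.1, 45.7 and 35.7 CPM in KO. The groups did not overlap, and the lowest WT value, that of WT 2, was well above the highest KO value. The means were 97.0 ± 23.2 and 39.8 ± 5.25 CPM (SD, n = 3 each). The log2 fold change was -1.28 (SE 0.23), with an unadjusted p of 0.000164 and an adjusted p of 0.0915 in edgeR, which misses the threshold. Without a filter on low counts the adjusted p was 0.00423 in edgeR, and DESeq2 gave 0.000327. It reached 0.612 in edgeR when WT 3 was left out, with the KO still lower. H1fx has a GC content of 71.3%, and with a trend on length and GC content taken out of the counts its log2 fold change was -0.85 (SE 0.15, adjusted p 0.0704 in edgeR).

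H1f0 encodes H1.0, a linker associated with differentiated and slowly dividing cells, at chr15:79028450-79030504 (plus strand, 1 exon). H1f0 stood at 78.8, 62.5 and 68.9 CPM in WT and at 43.1, 48.8 and 45.9 CPM in KO. All KO libraries were below all WT libraries, with little spread inside either group. Its log2 fold change was -0.61 (SE 0.20), with an adjusted p of 0.284 in edgeR. The Hist1h1 linkers were read at far lower levels. Hist1h1c, which encodes H1.2, had 7.35, 6.65 and 9.35 CPM in WT and 5.77, 9.03 and 5.58 CPM in KO. Its groups overlapped and its log2 fold change was -0.19 (SE 0.36, adjusted p 0.879 in edgeR), or 0.10 with the length and GC trend removed. Hist1h1b, which encodes H1.5, was read at 0.788, 3.52 and 2.18 CPM in WT and at 0.152, 1.48 and 1.0 CPM in KO, a spread within WT as wide as the difference between groups. Its log2 fold change of -1.30 (SE 0.80) had an adjusted p of 0.519 in edgeR. Hist1h1d, which encodes H1.3, also overlapped, with a log2 fold change of -0.19 (SE 0.68, adjusted p 0.943 in edgeR) that was 0.08 without WT 2. Hist1h1e and Hist1h1a did not pass the filter, at 59 and 47 counts in all, nor did the testis linker Hist1h1t at 4 counts. Hist1h1e went the other way, at 0.525, 0.782 and 0.623 CPM in WT and 1.29, 1.41 and 1.0 CPM in KO, without overlap. Its WT values rest on 2, 4 and 2 counts, and the difference was not tested. Hist1h1a and Hist1h1t overlapped between groups.

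The linker difference in summed level thus lay in H1fx and H1f0. With H1foo, the H1f genes gave totals of 187, 133 and 181 CPM for WT and 81.2, 94.7 and 81.6 CPM for KO. The 6 Hist1h1 genes gave totals of 9.19, 13.5 and 15 CPM for WT and 9.11, 14 and 9.29 CPM for KO, and these overlapped. The relative levels of H1fx, H1f0 and Hist1h1c also differed by library. Poly(A) selection leaves most stem-loop mRNAs behind, so the shares given next are not shares of all linker RNA or protein. As a share of the per-kilobase level of H1fx, H1f0 and Hist1h1c, H1fx held 67.4%, 62.5% and 70.0% in WT and 56.0%, 56.0% and 53.1% in KO. H1f0 held 29.0%, 32.9% and 25.4% in WT and 37.4%, 35.4% and 40.4% in KO. The shares of a library sum to a whole, so the larger share of H1f0 in KO stands beside its lower level.

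Promoters of the linkers were compared by motif, from RefSeq sequences on GRCm38.p6 that reach from 250 bases before to 50 after the start site. A promoter was matched for 60 of the 68 histone genes. The H1 box AAACACA, an element of replication-dependent H1 promoters, was found on either strand in 5 of 9 linker promoters, those of Hist1h1b, Hist1h1c, Hist1h1d, Hist1h1e and Hist1h1t, and in 7.18% of all 32851 promoters. In all 5 it lay on the gene's own strand, 112 to 122 bases before the start site. Neither H1fx nor H1f0 held it, nor CCAAT, ATTTGCAT or TATAAA, in this window. The RefSeq start of H1fx lies 155 bases inside the GENCODE gene. That of H1f0, at chr15:79028212, lies before the GENCODE start at 79028450, and its window ends at 79028261. The bases just before the GENCODE start of H1f0 were thus not searched. What these windows hold depends on the start site used. The bases before the start site are shown for Hist1h1c (chr13:23738557-23738806, plus strand), with the H1 box and CCAAT in capitals. They are shown also for Hist3h2a (chr11:58954435-58954684, plus strand), with the reverse complement of the octamer ATTTGCAT and CCAAT on both strands in capitals.
Hist1h1c promoter: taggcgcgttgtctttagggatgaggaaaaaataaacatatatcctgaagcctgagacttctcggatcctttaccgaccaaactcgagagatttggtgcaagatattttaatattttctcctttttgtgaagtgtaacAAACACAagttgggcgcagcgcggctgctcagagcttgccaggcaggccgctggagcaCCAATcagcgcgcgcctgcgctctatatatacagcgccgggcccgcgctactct
Hist3h2a promoter: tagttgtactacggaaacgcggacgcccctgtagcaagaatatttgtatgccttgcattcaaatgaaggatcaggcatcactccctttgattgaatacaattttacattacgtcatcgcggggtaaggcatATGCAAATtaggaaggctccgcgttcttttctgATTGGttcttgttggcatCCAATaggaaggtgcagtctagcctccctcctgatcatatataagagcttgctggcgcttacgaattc
Of the 44 replication-dependent core promoters matched, 84.1% held CCAAT, 25.0% the octamer and 59.1% TATAAA, against 37.41%, 1.74% and 13.62% of all promoters. CCAAT was in all 13 H2A, all 13 H2B and all 8 H3 promoters, but in 3 of 10 H4 promoters. The octamer was found in 6 of 13 H2A and 5 of 13 H2B promoters and in 0 of the H3 and H4 promoters. These matches describe letters in a window and no measurement of binding.

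The H2A variants were read as follows. H2afz and H2afv encode the pair of H2A.Z proteins, which sit at promoters and enhancers. H2afz (chr3:137864487-137866922) was read at 704, 776 and 556 CPM in WT and at 532, 682 and 442 CPM in KO. The groups overlapped, since KO 2 lay above WT 3, and the log2 fold change was -0.30 (SE 0.23, adjusted p 0.619 in edgeR). H2afv (chr11:6427229-6444443) was read at 228, 231 and 272 CPM in WT and at 136, 232 and 136 CPM in KO. KO 1 and KO 3 were far below WT, and KO 2 was level with WT. Its log2 fold change was -0.53 (SE 0.24, adjusted p 0.398 in edgeR), and it was -0.83 without KO 2. Of the per-kilobase level of both H2A.Z genes, H2afz held 71.6% ± 5.54 in WT and 75.4% ± 2.63 in KO (SD, n = 3 each), a difference within the spread.

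H2afx encodes H2A.X, whose phosphorylated form marks DNA breaks, and lies at chr9:44334694-44336077 (plus strand, 1 exon). H2afx was read at 596, 413 and 593 CPM in WT and at 354, 408 and 386 CPM in KO. The groups did not overlap, but only just, since KO 2 at 408 was close to WT 2 at 413. The log2 fold change was -0.48 (SE 0.21), with an adjusted p of 0.378 in edgeR. H2afx has a GC content of 62.3%, and with the length and GC trend removed its log2 fold change was -0.03 (adjusted p 0.965 in edgeR). H2afy encodes macroH2A1, a variant with a large additional domain, and was read at 387, 292 and 350 CPM in WT and 295, 300 and 270 CPM in KO. The groups overlapped, with a log2 fold change of -0.25 (SE 0.19, adjusted p 0.627 in edgeR). H2afj, which encodes H2A.J, had 67.2, 65.7 and 92.3 CPM in WT and 53.5, 74.7 and 41.8 CPM in KO. Its groups overlapped as well, at a log2 fold change of -0.40 (SE 0.25, adjusted p 0.534 in edgeR), or -0.13 with the trend removed.

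H3f3a and H3f3b encode the same protein, H3.3, which is placed in active genes and at telomeres outside replication. H3f3b (chr11:116021912-116027962) was read at 723, 902 and 694 CPM in WT and at 679, 733 and 671 CPM in KO. H3f3a (chr1:180800832-180813943) was read at 282, 414 and 272 CPM in WT and at 220, 384 and 321 CPM in KO. Both overlapped between groups, with the second mouse of each group the highest for both genes. The log2 fold changes were -0.15 (SE 0.20, adjusted p 0.798 in edgeR) for H3f3b and -0.07 (SE 0.25, adjusted p 0.948 in edgeR) for H3f3a. That of H3f3a turned to 0.05 when library size alone was used for scaling, and to 0.15 without WT 2 or 0.12 without KO 1. H3f3b held 74.0% ± 1.76 of the per-kilobase level of both genes in WT and 72.9% ± 4.86 in KO (SD, n = 3 each).

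The replication-dependent core genes that passed the filter were Hist1h4i, Hist2h2be, Hist1h2bc, Hist3h2ba, Hist3h2a and Hist1h2bj. Hist1h4i, an H4 gene (chr13:22040636-22041362), was read at 10.2, 15.2 and 9.97 CPM in WT and 7.90, 11.9 and 6.86 CPM in KO. The groups overlapped through KO 2, with a log2 fold change of -0.42 (SE 0.34, adjusted p 0.653 in edgeR) that was -0.18 without WT 2, -0.27 without KO 3 and -0.68 without KO 2. Hist1h2bc, an H2B gene (chr13:23684199-23692908), was read at 7.09, 7.43 and 6.55 CPM in WT and 1.67, 5.36 and 4.57 CPM in KO. All KO values were below all WT values and KO 1 was by far the lowest. Its log2 fold change was -0.86 (SE 0.47, adjusted p 0.468 in edgeR), or -0.51 without KO 1. Hist2h2be, an H2B gene, was read at 8.40, 8.80 and 5.30 CPM in WT and 7.44, 8.54 and 8.22 CPM in KO, and its log2 fold change was 0.10 (SE 0.34, adjusted p 0.943 in edgeR). Its groups overlapped, and WT 3 was the lowest library, without which the log2 fold change was -0.10.

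Hist3h2ba and Hist3h2a are H2B and H2A genes a short way apart on chromosome 11. Hist3h2ba had 4.20, 7.43 and 5.30 CPM in WT and 3.87, 5.36 and 3.50 CPM in KO. Hist3h2a had 4.99, 5.47 and 3.43 CPM in WT and 2.51, 4.80 and 4.0 CPM in KO. Both overlapped between groups, at -0.42 (SE 0.41) and -0.30 (SE 0.44) on the log2 scale. With a library left out Hist3h2ba ranged from -0.61 (without KO 2) to -0.16 (without WT 2), and Hist3h2a from -0.51 (without KO 2) to -0.08 (without KO 1). Hist3h2a had -1.22 after thinning to the smallest library. Hist1h2bj, another H2B gene, had 1.31, 1.37 and 1.25 CPM in WT and 1.37, 1.34 and 0.50 CPM in KO. These values rest on only 5, 7 and 4 counts in WT and 18, 19 and 7 in KO, so the lower KO 3 value is uncertain. The groups of Hist1h2bj overlapped, at a log2 fold change of -0.29 (SE 0.65, adjusted p 0.903 in edgeR). Trim17, which overlaps Hist3h2a on the same strand, was read at no more than 1.98 CPM. With the length and GC trend removed the median of the replication-dependent core genes was -0.09, where Hist1h4i had -0.16 and Hist3h2ba had -0.03.

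Summed by histone type, the replication-dependent genes gave 25.2, 30.5 and 24.9 CPM of H2B in WT and 18.2, 26.3 and 19.4 CPM in KO. H4 gave 12.9, 21.9 and 15.6 CPM in WT and 11.5, 15.5 and 8.86 CPM in KO. H2A gave 7.09, 7.43 and 5.92 CPM in WT and 6.00, 6.99 and 5.29 CPM in KO. H3 gave no more than 3.52 CPM in any library. All 4 types overlapped between groups, and the second mouse of each group was the highest in all 4. The summed level of all histone genes was 3200 ± 116 CPM in WT and 2590 ± 333 CPM in KO (SD, n = 3 each), a ratio of 0.808 without overlap. The TMM-scaled CPM of all tested genes summed together had a ratio of 0.921, with overlap. As CPM of the plain library total the histone sums overlapped too, at 2910 CPM in WT 3 and 2940 CPM in KO 2, as did the variants at 2680 and 2780 CPM.

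**Figure D4:**
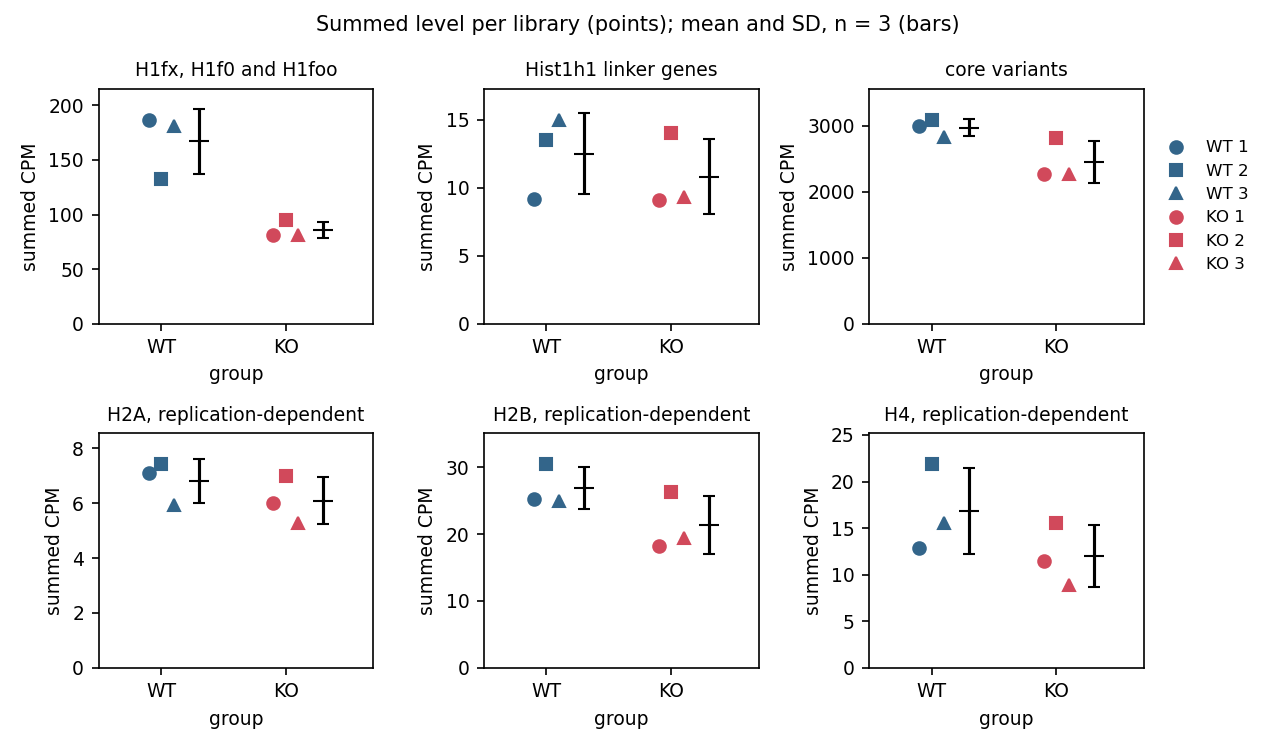
Summed level of histone gene groups in each library, in TMM-normalised CPM, with the mean and SD of each group of 3 mice as bars. H1fx, H1f0 and H1foo together are lower in every KO library, at 81.2 to 94.7 CPM, than in any WT library, at 133 to 187 CPM, whereas Hist1h1 linkers and replication-dependent H2A, H2B and H4 overlap.

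Genes that make and process histone mRNA were then read. Of 30 listed genes 27 were in the table and tested, and none passed in edgeR in either direction. Of these 15 had a log2 fold change below 0, with a median of -0.04. Slbp, which binds the stem-loop, was read at 238, 293 and 184 CPM in WT and 249, 244 and 199 CPM in KO. Npat, the coactivator of replication-dependent histone genes, was read at 24.4, 64.1 and 42.4 CPM in WT and 58.6, 47.1 and 43.5 CPM in KO. Both overlapped between groups, at -0.05 (SE 0.22) and 0.18 (SE 0.31) on the log2 scale. Pou2f1, which encodes the octamer-binding factor Oct-1, had 35.7, 50.2 and 30.5 CPM in WT and 77.5, 54.4 and 92.4 CPM in KO, all above WT, with a log2 fold change of 0.94 (SE 0.27, adjusted p 0.232 in edgeR).

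The 36 listed chaperones and variant exchange factors were all tested and none passed in edgeR. Of these 21 had a fold change below 0, with a median of -0.10, and 6 had all KO values below WT while 2 had all above, against 7.95% and 10% of all genes tested. Vps72 and Znhit1, subunits of the SRCAP complex that exchanges H2A.Z into nucleosomes, differed by -0.69 (SE 0.24) and -0.67 (SE 0.24) on the log2 scale, KO over WT. Vps72 was read at 84.8, 70.4 and 98.5 CPM in WT and 43.0, 68.5 and 45.0 CPM in KO. Rbbp4, a histone-binding subunit of CAF-1 and of several corepressors, was read at 970, 1190 and 1170 CPM in WT and 612, 858 and 715 CPM in KO (log2 fold change -0.61, SE 0.21). KO 2 was the highest KO library for Vps72 and Rbbp4, as it was for all 7 tested core variants and for H1fx and H1f0. This order was thus not particular to the H2A.Z genes.

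Replication genes were set beside the histone genes, since replication-dependent histones are made in S phase. Of 25 S phase genes 24 had a log2 fold change below 0 and none passed in edgeR, with a median of -0.34. Their sum was 9870, 9450 and 9770 CPM in WT and 7530, 8350 and 7400 CPM in KO, without overlap. For 16 mitosis genes the median was -0.05, and their sums overlapped, between 4890 and 5970 CPM for WT and between 4760 and 6900 CPM for KO. The part of the S phase genes in the histone values was not tested. Among RNAs known to lack a poly(A) tail, 12 of 24 listed were in the table and 2 passed the filter. The ribosomal precursor Rn45s was read at 2270, 4920 and 3310 CPM in WT and at 2250, 2160 and 2550 CPM in KO, so its groups overlapped, and its part in the levels of stem-loop mRNAs was not tested.

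**Figure D5:**
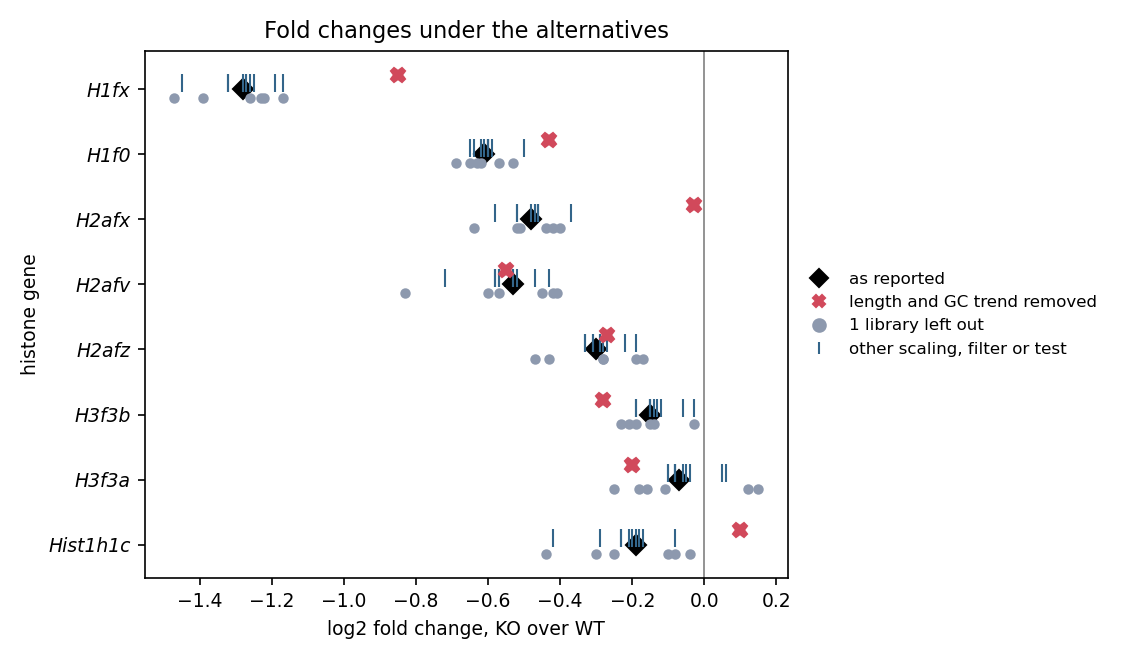
Log2 fold change of KO over WT for 8 histone genes as reported, with the length and GC trend removed, with 1 library left out, and under other scalings, filters or tests. H1fx stays between -1.47 and -0.85, H2afx reaches -0.03 when the trend is removed, and H3f3a lies on both sides of 0.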

How the data were processed

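Poly(A) RNA of sorted germinal centre B cells was sequenced from 3 WT and 3 KO mice, grouped by their GEO labels. What the authors deposited is a single table of unnormalised read counts, with gene symbols as rows and mice as columns. The submitters' processing notes name CASAVA, STAR 2.5.2, featureCounts 1.5.2 and the build mm10. The annotation, strandedness and treatment of multi-mapping reads are not given there.

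The counts of every gene entered 1 model in edgeR 4.0.16 (R 4.3.3). Low counts were filtered with filterByExpr, library sizes scaled by TMM, and the group term tested with glmQLFTest after a robust glmQLFit without further terms. The two-sided p-values were adjusted by the Benjamini-Hochberg method over 10926 tested genes, with a threshold of 0.05. A standard error is the absolute log2 fold change divided by the root of F. The common biological coefficient of variation came to 30.8%. Each library is 1 mouse, and p-values measure the spread between these mice. The fit was also run on simulated counts with 200 changed genes, and no result given here rests on that run. Each gene was drawn around its mean over the libraries, without differences in cell makeup between mice. That run therefore does not show how the fit behaves on these libraries. Within each group libraries differed by more than sampling noise (chi-square per degree of freedom 14.4 to 50.9). Class sums are sums of CPM with no test. Genes were matched by symbol to GENCODE vM21 (GRCm38, the build of mm10) for position, exon length, GC content and 3′ elements, and to RefSeq GRCm38.p6 for promoters. The histone members, classes and gene lists were chosen with earlier results of these data known.

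The rule for named genes took Kdm1a, every tested linker and core variant gene, the 3 highest replication-dependent genes by CPM in each of H2A, H2B, H3 and H4, up to 4 tested members per direction by unadjusted p, up to 3 genes per list by p, and Slbp and Npat. Not every gene it takes is described. The 17 alternatives covered scaling (DESeq2 1.42.0 size factors, upper quartile, library size alone), filters, DESeq2, limma 3.58.1 voom with and without quality weights, a replicate block, each library left out, thinning to the smallest library, and removal of a trend on length and GC content (98.4% of tested genes had both).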

Additional observations from a re-analysis of the deposited data

How the results depend on the processing

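Of 17 alternatives, none called a histone gene higher and 3 called 1 lower, which was H1fx each time: no filter, DESeq2, and limma-voom with quality weights. The log2 fold change of H1fx lay between -1.47 and -0.85, with adjusted p from 0.000327 to 0.612. Over all genes the 8 calls higher became 16 with library size alone, 81 without a filter, 88 in DESeq2, 5 in limma-voom, 290 with quality weights, 5 after thinning, 16 with the length and GC trend removed, and 1 to 21 with a library left out. The 1 call lower became 2 with DESeq2 size factors, upper-quartile scaling, library size alone, the stricter filter of 5 CPM, or thinning. It became 12 without a filter, 34 in DESeq2, 344 with quality weights, 3 with the trend removed, and 0 to 5 with a library left out. With the replicate block 20 genes were called higher, no histone gene was called, and H1fx had -1.26 (adjusted p 0.101 in edgeR). The replicate numbers are only shared: deviations of same-numbered mice correlated at 0.341, -0.0525 and 0.443, and WT 2 correlated best with KO 3 (0.143). Quality weights also called 1 gene of the transcription and processing list higher and 3 chaperone genes lower, against 0 each.

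The median of the linkers was -0.19 without a filter and -1.02 to -0.08 with a library left out, where the set of tested genes changes. That of the replication-dependent core genes was -0.65 after thinning and -0.61 to -0.16 with a library left out, and that of the variants -0.47 to -0.23. The Kdm1a value ranged from -1.93 to -0.88 with a library left out. Signs turned for H3f3a (0.05 with library size alone, 0.06 with quality weights, 0.15 without WT 2, 0.12 without KO 1), Hist1h1d (0.08 without WT 2), Hist1h1c (0.10 with the trend removed) and Hist2h2be (-0.10 without WT 3). With a library left out they ranged from -0.25 to 0.15 for H3f3a, from -0.52 to 0.08 for Hist1h1d and from -0.10 to 0.23 for Hist2h2be. The causes were not tested. Library size alone moved the median of all genes to 0.13, and 16 of 18 histone genes then stayed below 0. With the trend removed 15 of 18 did, without a filter 45 of 68, and without WT 2 16 of 24. The median over all tested histone genes lay between -0.57 and -0.19. Depth limits the 50 untested genes, whose counts are too few for a comparison.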
